A study of Homo sapiens with 20 samples.

Results

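The sites described here are the SA2 peaks of 2 human cell lines, CHM13 and RPE-1, on the genome build hg38. SA2, also named STAG2, is a subunit of cohesin. The SA2 list of CHM13 cells held 44374 peaks on chromosomes 1 to 22 and X and that of RPE-1 cells held 6389, 50763 of the 188806 peaks in the study's 6 hg38 lists of cohesin subunits. A CHM13 peak was called shared where it overlapped an RPE-1 SA2 peak by at least 1 bp, and a peak of either line without such an overlap was called CHM13-only or RPE-1-only. By this rule 6279 CHM13 peaks were shared and 38095 were CHM13-only, while 6292 RPE-1 peaks were shared and 97 were RPE-1-only.

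Cohesin is a ring-shaped complex that holds sister chromatids together and extrudes chromatin loops. Its kleisin subunit RAD21 closes the ring formed by SMC1A and SMC3, and it binds 1 of 2 alternative stromal antigen subunits, SA1 (STAG1) or SA2. Along chromosome arms, loop-extruding cohesin comes to rest where the zinc finger protein CTCF occupies its motif, and SA1 and SA2 have many such positions in common. SA2-cohesin is also known from enhancers and active gene starts, and STAG2 is a gene often mutated in cancer.

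In the study, ChIP-seq of RAD21, SA1 and SA2, with total chromatin as input, was performed in 3 replicates of CHM13 cells and 2 replicates of RPE-1 cells. CHM13 is a line from a complete hydatidiform mole, a conception with only paternal chromosomes, and RPE-1 is a line from retinal pigment epithelium. Both lines carry the telomerase gene hTERT, no treatment was named, and the medium of CHM13 cells alone was supplemented with insulin-transferrin-selenium and pyruvate. The lists pool the replicates of a line and give positions only, so no peak has a height, no spread between replicates can be given, and the labelled cell types could not be checked against transcripts.

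SA2 was precipitated with the same antibody in both lines, as was SA1, while the antibodies to RAD21 were not the same. The lines also differed in the number of replicates, in medium, in sonicator (Covaris for CHM13, Bioruptor for RPE-1) and in the addition of Drosophila chromatin, which was made to CHM13 samples only. These differences and the cell line cannot be told apart in any comparison below. Read depth is not held in the lists, but the paper reports fewer uniquely mapped reads for each RPE-1 SA2 library than for any CHM13 SA2 library. Loci were kept if seen in at least 2 replicates, which meant every replicate of RPE-1 but not of CHM13. Neither can be told apart from the cell line, and their part was not tested. The intervals given below are Wilson intervals at 95% and cover counting error only.

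The length of the RPE-1 SA2 list depended on the genome build. It held 6389 peaks on hg38 and 9579 on CHM13 v1.0, a ratio of 0.667, whereas the ratio for the other 5 lists lay between 0.929 and 1.03. RPE-1 peaks were also narrower on hg38, with a median SA2 width of 360 bp against 408 bp on CHM13 v1.0. CHM13 SA2 peaks had a median width of 608 bp on hg38 and 611 bp on CHM13 v1.0. The shared part of the CHM13 list was 14.2% on hg38 (13.8 to 14.5) and 21.3% on CHM13 v1.0 (20.9 to 21.7). The shared part of the RPE-1 list was 98.5% (98.2 to 98.8) and 97.6% (97.3 to 97.9). On both builds nearly every RPE-1 SA2 site was therefore also a CHM13 site, and the share of CHM13 sites found in RPE-1 was the value that moved.

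The following windows show the sequence under sites of each kind. They are 300 bases of hg38 around the peak centre, 5′ to 3′ on the forward strand, and the capitals mark a match to the CTCF core motif CCNNNAGGNGGC on either strand. For each line they are the 2 widest line-only sites with such a match outside annotated exons, among those that also carried RAD21 and SA1 of the same line and no cohesin peak of the other line. They are set beside a shared site present in all 6 lists.
shared, near AKR1E2, chr10:4849733-4850032: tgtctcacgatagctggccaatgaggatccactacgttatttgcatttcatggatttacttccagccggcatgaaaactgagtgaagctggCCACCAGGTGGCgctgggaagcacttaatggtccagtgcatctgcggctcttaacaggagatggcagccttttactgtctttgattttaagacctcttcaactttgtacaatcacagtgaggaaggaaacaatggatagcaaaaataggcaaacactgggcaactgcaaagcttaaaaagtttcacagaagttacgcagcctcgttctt
CHM13-only, near SAMD4A, chr14:54566579-54566878: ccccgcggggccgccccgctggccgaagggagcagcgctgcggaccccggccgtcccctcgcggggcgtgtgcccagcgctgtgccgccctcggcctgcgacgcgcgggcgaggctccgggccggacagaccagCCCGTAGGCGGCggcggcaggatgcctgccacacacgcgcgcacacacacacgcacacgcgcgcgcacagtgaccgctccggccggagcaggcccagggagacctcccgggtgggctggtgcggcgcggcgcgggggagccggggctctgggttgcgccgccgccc
CHM13-only, near ERRFI1, chr1:8097014-8097313: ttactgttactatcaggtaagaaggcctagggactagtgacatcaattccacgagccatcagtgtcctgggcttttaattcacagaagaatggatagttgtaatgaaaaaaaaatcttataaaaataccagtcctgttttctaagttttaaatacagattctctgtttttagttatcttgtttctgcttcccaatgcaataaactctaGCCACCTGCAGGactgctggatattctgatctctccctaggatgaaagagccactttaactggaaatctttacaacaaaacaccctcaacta
RPE-1-only, near CCDC74A, chr2:131673997-131674296: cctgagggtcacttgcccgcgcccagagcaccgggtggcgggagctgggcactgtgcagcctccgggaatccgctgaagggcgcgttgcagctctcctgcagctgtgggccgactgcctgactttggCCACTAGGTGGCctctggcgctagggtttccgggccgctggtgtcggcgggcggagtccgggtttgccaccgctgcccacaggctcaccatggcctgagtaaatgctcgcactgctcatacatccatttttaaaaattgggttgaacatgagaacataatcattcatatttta
RPE-1-only, near GRIK2, chr6:101226851-101227150: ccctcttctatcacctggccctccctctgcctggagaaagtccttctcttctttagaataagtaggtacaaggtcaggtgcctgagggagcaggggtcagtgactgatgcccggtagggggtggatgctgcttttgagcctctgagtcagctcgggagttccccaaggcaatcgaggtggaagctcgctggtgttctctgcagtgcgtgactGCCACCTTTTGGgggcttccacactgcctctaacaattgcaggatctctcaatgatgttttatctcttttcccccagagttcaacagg

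The shared window was cut from a CHM13 peak of 815 bp, 63254 bp downstream of the start of AKR1E2, an aldo-keto reductase. The CHM13-only windows came from peaks of 3268 bp and 1545 bp. The first was centred 612 bp downstream of the start of SAMD4A, an RNA-binding repressor of translation. The second lay 70855 bp upstream of ERRFI1, a feedback inhibitor of the EGF receptor. The RPE-1-only windows came from peaks of 398 bp and 369 bp, 146472 bp from CCDC74A and 264300 bp downstream of the start of GRIK2, which encodes a kainate receptor subunit. In 3 of the 5 windows the motif lay on the forward strand, and in those near ERRFI1 and GRIK2 on the reverse strand.

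The CTCF core motif was more frequent at shared sites than at CHM13-only sites. Within 150 bp of the peak centre it was found at 1301 of 6279 shared sites (20.7%, 19.7 to 21.7) and at 4203 of 38095 CHM13-only sites (11.03%, 10.7 to 11.4), and both shares were above the 0.678% of all 300-base tiles of the same chromosomes. The share at CHM13-only sites was lower on 22 of 23 chromosomes (adjusted p = 1.57e-05, exact two-sided sign test across chromosomes). Seen from the motif, 23.6% of CHM13 peaks with a match were shared (22.5 to 24.8) and 12.8% of those without one (12.5 to 13.1). At RPE-1-only sites 9 of 97 held the motif (9.28%, 4.96 to 16.7) and at shared RPE-1 peaks 1383 of 6292 did (21.98%, 20.97 to 23.02). No test across chromosomes is read from these shares, since 13 of the 19 chromosomes with RPE-1-only sites held none with the motif. Among promoters of RefSeq genes of the same length, 4.63% held it. Chromosomes are units of 1 list here and not replicates of a line, so these p-values describe how evenly a difference ran along the genome.

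**Figure D1:**
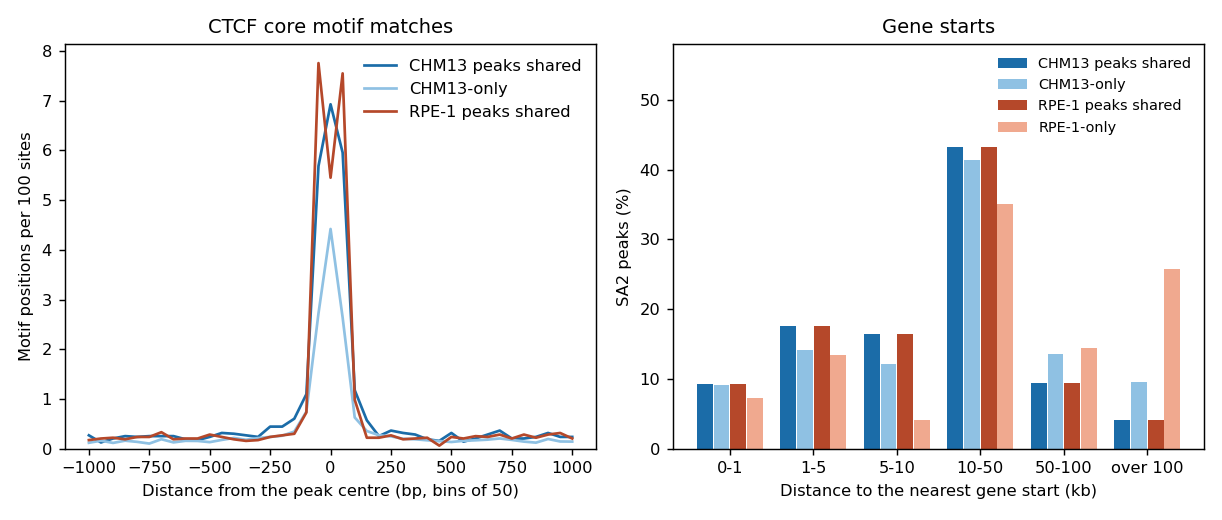
The left plot gives positions of the CTCF core motif per 100 sites in 50-bp bins around the peak centre, and the right plot the share of SA2 peaks (%) by distance to the nearest gene start (kb), by group of sites. RPE-1-only sites are left out on the left because they number 97. Matches lay near the centre in every group plotted (6.93 per 100 shared CHM13 peaks and 4.42 per 100 CHM13-only peaks in the central bin), and 25.8% of RPE-1-only sites lay over 100 kb from a gene start.

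GC content followed the same order in CHM13 cells. Its median over the same 300 bases was 47.3% at shared and 42.3% at CHM13-only sites, lower at the latter on 23 of 23 chromosomes (adjusted p = 1.05e-06, exact sign test). Across deciles of CHM13 peaks by GC content, the shared share was 8.56% to 9.74% in the 4 deciles with least GC, rose to 26.3% in the decile between 53.0% and 60.7% GC, and was 20.6% above it. RPE-1-only sites had a median of 44.3% against 47.3% at shared RPE-1 peaks (adjusted p = 0.416, exact sign test).

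SA2 peaks of CHM13 cells were wider than the RPE-1 peaks they met. The median width at shared sites was 712 bp in CHM13 and 360 bp in RPE-1, and the CHM13 median was the larger on 23 of 23 chromosomes (adjusted p = 1.05e-06, exact sign test). Of 6266 pairs in which a single peak met a single peak, the CHM13 peak was the wider in 6247 (99.7%), by a median ratio of 1.97 (quartiles 1.74 and 2.29). The RPE-1 peak lay wholly inside the CHM13 peak in 99.0% of pairs, and the centres were a median of 25 bp apart. Shared sites therefore had the same centres in both lines to within a fraction of a peak width. Spearman's rho between the 2 widths was 0.30 over these pairs, a description without a test, since the pairs are positions from the same lists. A further 13 CHM13 peaks met more than 1 RPE-1 peak.

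Within CHM13 cells, sites that RPE-1 lacked were narrower and more variable in width. Their median was 582 bp (quartiles 470 and 726) against 712 bp (639 and 795.5) at shared sites, lower on 23 of 23 chromosomes (adjusted p = 1.05e-06, exact sign test). A wider peak meets a 1-bp overlap more easily, so the rule itself favours wide peaks among the shared. With peaks of the other line within 1 kb counted as shared, the difference of CHM13-only from shared sites was -128 bp. RPE-1-only peaks had a median of 335 bp (292 and 381) against 360 bp (318 and 403) at shared RPE-1 peaks, lower on 12 of 19 chromosomes with such sites (adjusted p = 0.416, exact sign test). Few line-only sites were near misses of the overlap rule. Of the CHM13-only peaks, 129 (0.339%) lay within 1 kb of an RPE-1 SA2 peak, and the median gap was 142 kb, while 3 of the 97 RPE-1-only peaks (3.09%) lay within 1 kb of a CHM13 SA2 peak, with a median gap of 77.5 kb.

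**Figure D2:**
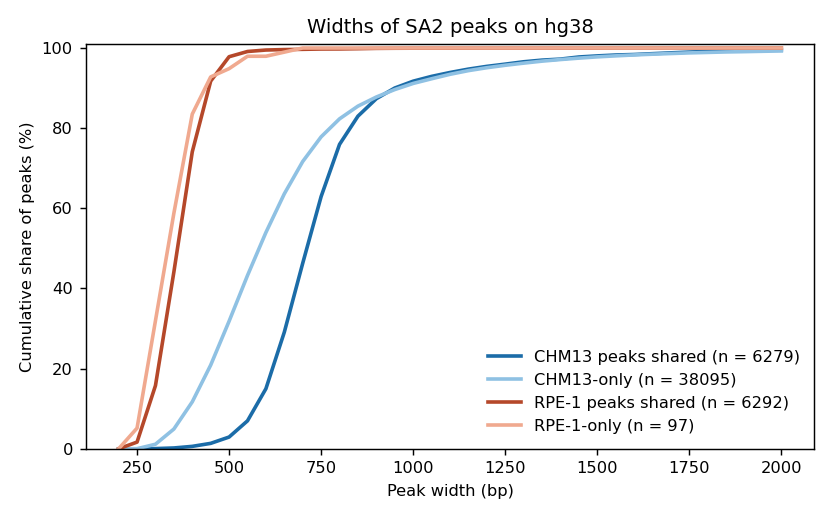
Cumulative share of SA2 peaks (%) against peak width (bp) on hg38 for the 4 groups of sites. The RPE-1 curves lie to the left (medians 360 and 335 bp) and the shared CHM13 peaks to the right (712 bp), and the CHM13-only curve (582 bp) joins that of the shared peaks near 900 bp.

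The share of CHM13 peaks found in RPE-1 rose with width and then fell. It was 0.856% in the narrowest decile of CHM13 peaks, up to 399 bp, and 32.4% in the eighth decile, between 712 and 786 bp. In the widest decile, from 960 to 4305 bp, it was 13.6% (12.7 to 14.7), less than in each of the 4 deciles below it. That decile also differed in kind. It held the motif at 3.08% of CHM13-only and 4.79% of shared sites, and 20.1% of its CHM13-only and 16.4% of its shared sites lay within 1 kb of a gene start, against 9.13% and 7.37% in the ninth decile. Width and the other measures thus moved together, and within quartile classes of width the motif was still the more frequent at shared sites (20.3% against 12.7% in the narrowest class, 24.7% against 13.7% and 24.0% against 11.5% in the middle classes, and 15.4% against 5.32% in the widest).

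**Figure D3:**
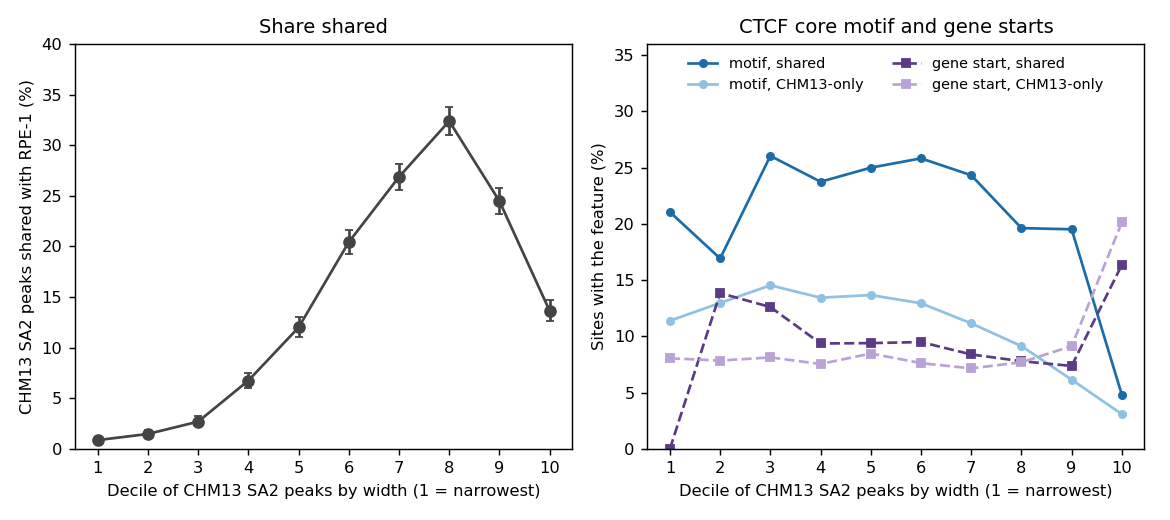
CHM13 SA2 peaks in deciles by width, with the share overlapped by an RPE-1 SA2 peak (%, left, bars are Wilson 95% intervals) and the shares of shared and CHM13-only sites with a CTCF core motif or within 1 kb of a gene start (%, right). The shared share peaks at 32.4% in the eighth decile and is 13.6% in the widest decile, where gene starts exceed motifs in both groups. The narrowest decile holds 38 shared sites.

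RAD21, the subunit common to both forms of the ring, was found at nearly every SA2 site of CHM13. A RAD21 peak of CHM13 overlapped 99.6% of shared sites (6254 of 6279) and 96.4% of CHM13-only sites (36734 of 38095), lower at the latter on 23 of 23 chromosomes (adjusted p = 1.05e-06, exact sign test). In RPE-1 cells 5542 of 6292 shared peaks (88.1%, 87.3 to 88.9) and 78 of 97 RPE-1-only peaks (80.4%, 71.4 to 87.1) carried RAD21 of that line. The latter difference did not pass on hg38 (adjusted p = 1, exact sign test). Nothing is read from this test, since the share rested on 1 RPE-1-only site on each of chromosomes 14, 15, 16 and 19. On CHM13 v1.0, 134 of 228 RPE-1-only peaks (58.8%) and 82.6% of shared RPE-1 peaks had RAD21, lower at the former on 17 of 20 chromosomes (adjusted p = 0.00368, exact sign test).

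SA1, the alternative subunit, separated the groups further. It overlapped 6252 shared sites (99.6%, 99.4 to 99.7) and 26512 CHM13-only sites (69.6%, 69.1 to 70.1) in CHM13 cells, a difference of -30.0 percentage points with the same sign on 23 of 23 chromosomes (adjusted p = 1.05e-06, exact sign test). SA2 sites without SA1 in CHM13 cells were thus 11583 of the CHM13-only group and 27 of the shared group. The gap was present within each quartile class of peak width, at 53.8% against 86.7% in the narrowest, 73.6% against 99.5% and 78.8% against 100% in the middle classes, and 76.0% against 99.9% in the widest. The RAD21 gap turned in the narrowest class, with 91.1% of CHM13-only and 87.4% of its 143 shared sites. In RPE-1, SA1 met 5302 shared peaks (84.3%, 83.3 to 85.1) and 71 of 97 RPE-1-only peaks (73.2%, 63.6 to 81.0). This difference did not pass on hg38 (adjusted p = 0.416, exact sign test), and nothing is read from that test, for the reason given for RAD21. On CHM13 v1.0 the shares were 77.7% and 58.8%, lower at RPE-1-only peaks on 16 of 20 chromosomes (adjusted p = 0.0148, exact sign test).

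A line-only SA2 site was not always free of cohesin in the other line. RPE-1 peaks of RAD21 or SA1 overlapped 9907 of the 38095 CHM13-only sites (26.0%, 25.6 to 26.4), with RAD21 at 8275, SA1 at 5081 and both at 3449 (9.05%). CHM13 peaks of RAD21 or SA1 overlapped 24 of the 97 RPE-1-only sites (24.7%, 17.2 to 34.2), and 13 had both. On CHM13 v1.0, with its longer RPE-1 SA2 list, 23.8% of CHM13-only sites had RAD21 or SA1 of RPE-1 and 6.21% had both. At shared sites the 2 other subunits of both lines were present together in 4768 of 6279 cases (75.9%, 74.9 to 77.0). SA2 peaks with neither RAD21 nor SA1 of their own line numbered 840 among CHM13-only sites (2.21%), 7 among shared CHM13 peaks (0.111%), 228 among shared RPE-1 peaks (3.62%) and 12 among RPE-1-only peaks (12.4%).

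**Figure D4:**
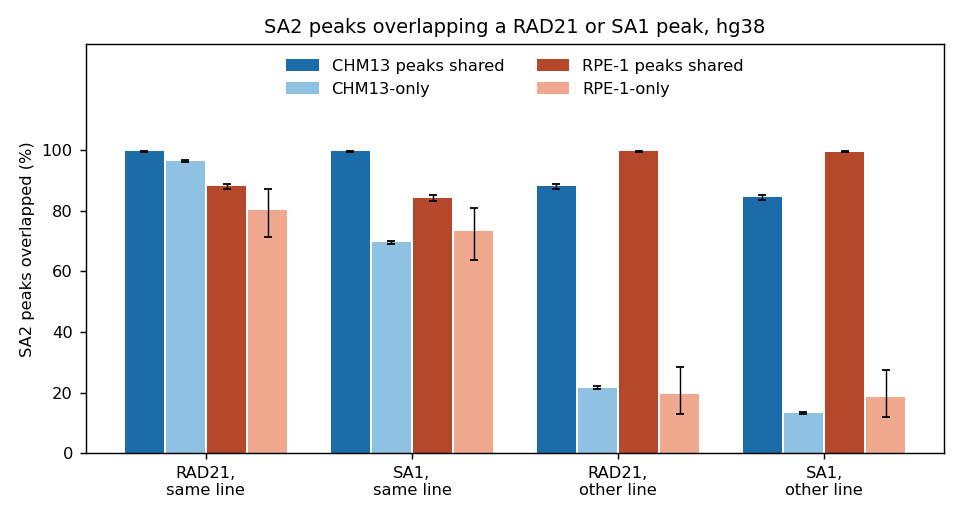
Share of SA2 peaks (%) overlapped by a RAD21 or SA1 peak of the same line and of the other line on hg38, for the 4 groups of sites, with Wilson 95% intervals as bars. SA1 of the same line met 99.6% of shared and 69.6% of CHM13-only peaks, and peaks of the other line met at most 21.7% of the line-only groups against at least 84.4% of the shared groups.

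Shared sites lay closer to genes. The median distance from the peak centre to the nearest start among all annotated genes was 12737 bp at shared and 18322 bp at CHM13-only sites, larger at the latter on 22 of 23 chromosomes (adjusted p = 1.57e-05, exact sign test). It was 12728 bp at shared RPE-1 peaks and 32563 bp at RPE-1-only peaks, larger on 16 of 19 chromosomes (adjusted p = 0.0108, exact sign test). On chromosomes 14, 15, 16 and 19 the RPE-1-only median was the value of 1 site. The same limit holds for the tests of RPE-1-only width and GC content. Over 100 kb from any gene start lay 4.08% of shared, 9.55% of CHM13-only and 25.8% of RPE-1-only sites (18.1 to 35.3). The last group is small, and its call was lost when peaks under 360 bp were left out (adjusted p = 0.330, exact sign test). Between protein-coding genes lay 67 of the 97 RPE-1-only sites (69.1%, 59.3 to 77.4), 49.7% of CHM13-only and 51.8% of shared sites, with no test of these shares.

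At gene starts themselves the order depended on which genes were counted. Within 1 kb of any annotated start lay 9.22% of shared and 9.19% of CHM13-only sites (adjusted p = 1, exact sign test). With starts of protein-coding genes alone the shares were 4.204% and 5.373%, higher at CHM13-only sites on 21 of 23 chromosomes (adjusted p = 1.61e-04, exact sign test). With 5 kb in place of 1 kb they were 26.8% and 23.3%, lower at CHM13-only sites (adjusted p = 0.00119, exact sign test). Of RPE-1-only sites 7 of 97 lay within 1 kb of a start (7.22%, 3.54 to 14.2), against 9.22% of shared RPE-1 peaks. On 13 of 19 chromosomes no RPE-1-only site lay that close, so that no test across chromosomes is read from these shares, and at 5 kb they were 20.6% and 26.9%.

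The widest CHM13-only sites that carried RAD21 and SA1 in CHM13 and met no cohesin peak of RPE-1, 10 of 16437 such sites, spanned 3327 to 3819 bp and held no motif at their centre. The widest, of 3819 bp at chr5:124745789-124749607, covered the start of ZNF608, a zinc finger gene, with its centre 1109 bp downstream. One of 3804 bp at chr10:17227291-17231094 covered the start of VIM, which encodes the intermediate filament vimentin of mesenchymal cells. One of 3649 bp covered the start of ZEB1, a repressor of epithelial genes, with its centre 1424 bp downstream. One of 3540 bp covered the start of COL3A1, with its centre 1276 bp inside the gene. Another of 3444 bp was centred 46363 bp inside its neighbour COL5A2, and both are fibrillar collagen genes. Others lay at DUSP6, a phosphatase of ERK kinases (3681 bp, 138 bp from the start), KLF13, a zinc finger transcription factor (3345 bp, 353 bp), and UTRN, the utrophin gene (3327 bp, 320 bp). NEGR1, a neuronal adhesion gene, had one of 3379 bp that covered its start, with its centre 1534 bp upstream. CDC42EP3, an effector of the GTPase CDC42, had one of 3736 bp centred 67277 bp downstream of its start. Of the 10, 8 had their centre within 2 kb of the start of a protein-coding gene. The share of all CHM13-only sites at that distance was not computed. Within 1 kb of such a start it was 5.37%. In the widest decile, 20.1% of CHM13-only sites lay within 1 kb of any annotated start.

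The 10 widest of the 48 RPE-1-only sites with RAD21 and SA1 in RPE-1 and no cohesin peak in CHM13 spanned 389 to 532 bp. The widest, at chr10:114703572-114704103, lay in an intron of ABLIM1, which encodes an actin-binding LIM protein, and ABLIM1 held a further RPE-1-only site, 2 shared sites and no CHM13-only site. A 424-bp site at chr16:10181477-10181900 lay 1239 bp inside GRIN2A, a subunit of the NMDA glutamate receptor, with 68.7% GC around its centre. The remaining 8 lay 12182 bp (GPR142, a G protein-coupled receptor gene) to 1473381 bp (GPC5, a glypican gene) from the nearest protein-coding start, with those of ACTL7B, STAC, CCDC74A, ATRNL1, FAN1 and HTR7 between. One of the 10 held the motif, the site near CCDC74A printed above.

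Among the 4768 shared sites present in all 6 lists, the 10 widest, ranked by the narrower of the 2 SA2 peaks, included sites on the long-arm side of the centromeres of chromosomes 16 and 1. Of the 10, 3 lay at chr16:46389640-46401598, 221413 to 230875 bp downstream of the start of SHCBP1, with CHM13 widths of 1728, 3265 and 878 bp and RPE-1 widths of 1690, 1534 and 867 bp. A further site at chr1:125179664-125180635 (972 and 947 bp) was 3994611 bp from FAM72B, the nearest protein-coding start, and one at chr1:143262101-143262955 (855 and 842 bp) was 643449 bp from H3-7. In 4 of these 5 the RPE-1 peak nearly equalled the CHM13 peak in width, against the median ratio of 1.97 over all pairs. Ranking by the narrower peak itself favours pairs with a wide RPE-1 peak, so nothing is read from this contrast. How reads were placed at these 5 sites was not tested, and the input was not analysed there. The other 5, near GPR61, IGFBP7, PREX1, TEX35 and AKR1E2, had CHM13 widths of 1065 to 1441 bp and RPE-1 widths of 806 to 941 bp. None of the 10 held the motif at its centre.

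Of 19970 protein-coding genes, 936 (4.69%) had a shared site within 5 kb of the start, 4186 (21%) had CHM13-only sites and no shared site there, and 12 (0.0601%) had an RPE-1-only site. These shares are the background for the gene lists that follow, which are read as counts without a test. Among the lists, which were chosen with earlier results of these data known, mesenchymal genes carried sites most often. The order of the lists is therefore a description only. Of 24, 4 had a shared site and 15 had CHM13-only sites alone. The shared sites were at TWIST1 and SNAI1, transcription factors of epithelial-mesenchymal transition, and at COL1A1 and COL1A2, the chains of type I collagen. CAV1, the caveolin gene, had 4 CHM13-only sites near its start, and SNAI2, COL3A1 and the matricellular genes CCN1 and CCN2 had 3 each. ZEB1 and SPARC, a matrix protein gene, had 2 each, and VIM, CDH2, FN1, TWIST2, ZEB2, TGFBR2, ACTA2 and LOX had 1 each.

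The lists named for the 2 tissues of origin held fewer. Their counts lay near the background shares of 4.69% for shared sites and 21% for CHM13-only sites alone. Of 24 trophoblast genes, 1 had a shared site (PSG1, a pregnancy-specific glycoprotein gene) and 5 had CHM13-only sites alone, namely the transcription factor genes GATA2 and TP63, the keratin gene KRT7, the imprinted gene PEG10 and the integrin gene ITGA6. Of 23 pigment epithelium genes, 2 had a shared site, BEST1, a chloride channel, and RDH5, a retinol dehydrogenase. CHM13-only sites alone were found at 4 of them, LRAT (vitamin A esterification), TTR (retinol transport), MERTK (phagocytosis of photoreceptor segments) and TIMP3 (a metalloproteinase inhibitor). No gene of these lists had an RPE-1-only site near its start, where the background was 0.0601% of genes. Of 24 epithelial genes, 2 had shared sites (SPINT2 and ELF3) and 3 had CHM13-only sites alone (GRHL1, GRHL3 and TJP3).

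Of 24 genes of cohesin and its regulators, 3 had a shared site. These were STAG1, which encodes SA1, and PDS5A and PDS5B, which encode regulators of cohesin release. Another 5 had CHM13-only sites alone: STAG2, which encodes SA2, CTCF, the separase gene ESPL1, the SMC3 deacetylase gene HDAC8 and the meiotic kleisin gene RAD21L1.

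Most protein-coding genes had neither a shared nor a CHM13-only site within 5 kb of the start. Of 19970, 4.69% had a shared site and 21% had CHM13-only sites alone. The 12 genes with an RPE-1-only site within that distance also had neither. They were RPRM, a cell cycle arrest gene, EPHA6, an ephrin receptor, NPBWR1, a neuropeptide receptor, FAM110B, CNBD1, CNTNAP3C, NALF1, an auxiliary factor of the NALCN channel, GRIN2A, SOX15, a transcription factor, CD300LB, an immune receptor, and the neighbours DDT and GSTT2, which share the site. Over gene bodies with 5 kb upstream, CHM13-only sites were most numerous in long genes. RAD51B, a DNA repair gene of 910 kb, had 45 and 1 shared site, RUNX1, a transcription factor gene of 1217 kb, had 43 and 1, NAALADL2 had 39 and 0, MAGI2 had 37 and 3, and CDH13, a cadherin gene, had 36 and 0. RPE-1-only sites reached 3 in ZNF385D, which had 1 CHM13-only and no shared site, and 2 in ABLIM1, with 1 each in AGBL4, CYP1B1 and KCNIP3 by position among genes of equal count.

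Sharing varied along the genome. By chromosome, the shared part of the CHM13 list ran from 9.80% on chromosome 4 (8.78 to 10.9) to 22.7% on chromosome 19 (20.1 to 25.4), followed by 20.8% on chromosome 22, 19.9% on chromosome 12 and 19.8% on chromosome 17. The intervals of these 4 overlap. Across the 23 chromosomes the shared part increased with the number of protein-coding gene starts per Mb (Pearson's r = 0.77, Spearman's rho = 0.82). Without chromosomes 17 and 19 Pearson's r was 0.73. These values are a description over points that come from the same 2 lists. RPE-1-only sites were most numerous on chromosomes 3 (14), 9 (11), 2 and 13 (9 each). On chromosome 13 they were 6.43% of RPE-1 peaks, and chromosomes 18, 20, 21 and X had 0.

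**Figure D5:**
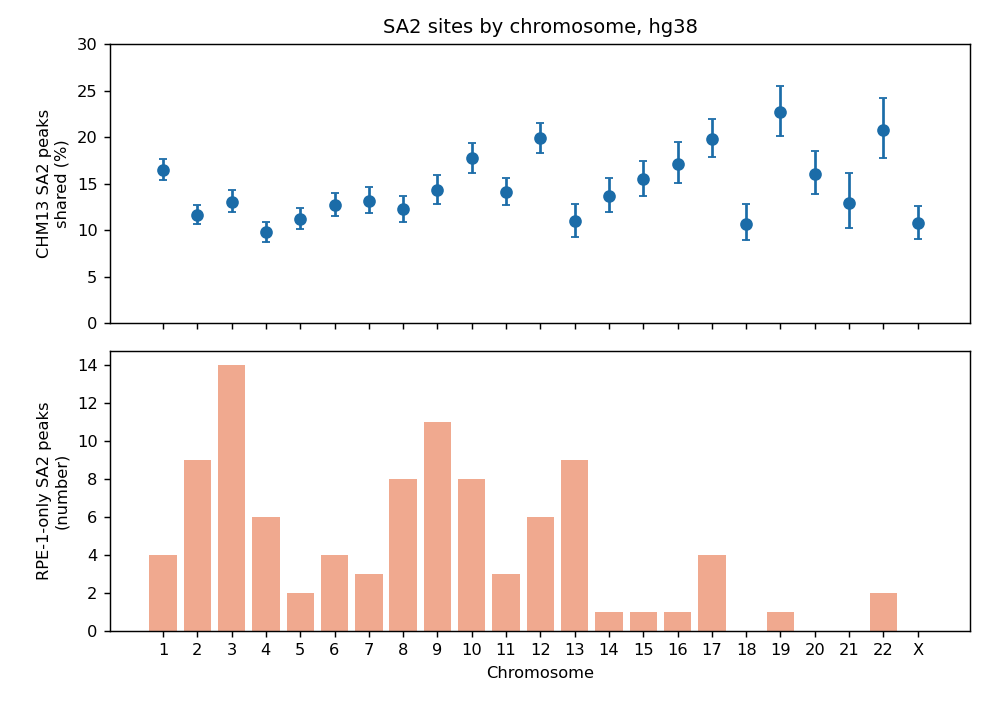
By chromosome, the share of CHM13 SA2 peaks overlapped by an RPE-1 SA2 peak (%, top, bars are Wilson 95% intervals) and the number of RPE-1-only SA2 peaks (bottom). The share runs from 9.80% on chromosome 4 to 22.7% on chromosome 19, and the number reaches 14 on chromosome 3.

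In 920 bins of 1 Mb with at least 20 CHM13 SA2 peaks the median share was 11.5% (quartiles 5 and 19.0), and 90 bins had no shared site. The 2 highest bins lay on chromosome X, whose share of 10.7% was among the lowest of the chromosomes. In the bin from 131000001 to 132000000, 20 of 28 peaks were shared (71.4%, 52.9 to 84.7), and 18 of these lay in FIRRE at chrX:131688779-131830862, a long noncoding RNA gene made of repeats that bind CTCF, where 1 further peak was CHM13-only. In the bin from 115000001 to 116000000, 23 of 37 were shared (62.2%, 46.1 to 75.9). Of these, 19 formed a row at chrX:115843939-115941394 with a median spacing of 2.98 kb and CHM13 widths of 536 to 846 bp, and 1 peak in that interval was CHM13-only. The row lies inside DANT2 (chrX:115694880-115969148) and overlaps DANT1 (chrX:115840899-115908066), noncoding genes on opposite strands that are named after the tandem repeat DXZ4, downstream of the plastin 3 gene PLS3. None of the 19 held the CTCF core motif as spelled here. These 2 rows were looked at after the bins had been ranked, and how reads of repeated units were placed was not tested.

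The third bin, chromosome 10 from 101000001 to 102000000, had 12 of 20 shared (60%, 38.7 to 78.1) and holds the starts of 13 protein-coding genes, among them the homeobox genes TLX1 and LBX1 and the growth factor gene FGF8. The lowest bins by position were 98000001 to 99000000 on chromosome 1, with 0 of 26 shared and the start of SNX7 alone, 238000001 to 239000000 on chromosome 1, with 0 of 30 and no protein-coding start, and 12000001 to 13000000 on chromosome 2, with 0 of 48 and the start of TRIB2 alone. For the last a count of 0 leaves an upper bound of 7.41%.

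Neighbouring peaks were closest around CHM13-only sites. The median distance to the next SA2 peak of the same line was 12.7 kb there (quartiles 4.37 and 30.8) and 17.9 kb (6.38 and 39.6) at shared CHM13 peaks, and 43.6% and 34.3% had one within 10 kb. In the sparser RPE-1 list the medians were 105 kb at shared and 193 kb at RPE-1-only peaks. Within 5 Mb of a chromosome end lay 7.31% of shared, 5.95% of CHM13-only and 1.03% (1 of 97) of RPE-1-only sites. These values are descriptions without a test.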

How the data were processed

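The values used are positions from 12 deposited peak lists, 1 for each of 2 cell lines, 3 subunits and 2 builds, which the authors made by aligning reads with bwa mem, dropping secondary alignments with samtools, calling peaks in each replicate with macs and merging replicates with GenomicRanges, keeping loci seen in at least 2 replicates. The methods state this for CHM13 v1.0. The hg38 alignment is not described in the sources used here. No peak on chromosomes 1 to 22 and X passed a chromosome end of hg38.

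Overlaps were computed with Python 3.11.15, numpy 2.4.6, scipy 1.17.1 and pysam 0.24.0, genes came from GENCODE 44, and figures from matplotlib 3.10.9. For 22 comparisons, medians or shares were taken per chromosome and compared by a two-sided exact sign test, with Benjamini-Hochberg adjustment over the 22 and a threshold of 0.05. On CHM13 v1.0 only the tests of width, RAD21 and SA1 overlap were made. Their adjustment ran over those tests alone, so adjusted values of the 2 builds come from families of unequal size. The procedures were tested on simulated data. Members, gene lists and rules were chosen with earlier results of these data known. Leaving out windows in exons was decided after seeing them, and 1 shared window is not reported here. Named sites were the 10 widest of each kind carrying RAD21 and SA1, list genes with a site, the 5 genes with most line-only sites per line, and the 3 highest and lowest bins. Alternatives concerned build, overlap rule, joining, minimum width, chromosome X, gene set and distance, motif, and GC window. Inputs and read depth were not analysed here.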

Additional observations from a re-analysis of the deposited data

Results flagged for a closer look

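The difference between line-only and shared sites was itself compared between the lines, and it differed for 2 of 7 measures. Of the 7, nothing is read from the gene-start and motif shares or from RAD21 and SA1 overlap, for the sparse RPE-1-only sites. For peak width, the CHM13-only minus shared difference was -130 bp and the RPE-1-only minus shared difference -25 bp. The former minus the latter was -105 bp, negative on 19 of 19 chromosomes (adjusted p = 1.40e-05, exact sign test). Shared peaks had medians of 712 bp in CHM13 and 360 bp in RPE-1, and these differences in bp were not scaled to width. For the distance to the nearest gene start, the differences were 5585 bp and 19836 bp, and the former minus the latter was -14251 bp, negative on 15 of 19 chromosomes (adjusted p = 0.0384, exact sign test). Both differences rest on 97 RPE-1-only sites, with 1 site each on chromosomes 14, 15, 16 and 19. The call for distance was lost when peaks within 1 kb counted as shared (adjusted p = 0.108, exact sign test). It was also lost when close peaks were joined (0.117) and with peaks of at least 360 bp (0.476). With overlap of 50% of both peaks the distance difference was reversed (3872 bp, 0.000104). Outside chromosomes 1 to 22 and X, the hg38 lists held 129 SA2 peaks of CHM13 and 27 of RPE-1. These entered no comparison, and their number was not compared with any background.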

How the results depend on the processing

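Over 12 alternatives, 117 of 144 recomputed tests kept their direction and their side of the threshold, 5 lost the call, 14 gained it and 8 changed sign. The differences of CHM13-only from shared sites in width, gene-start distance, RAD21, SA1, motif and GC content kept their calls in every alternative that recomputed them, as did the wider CHM13 peaks at shared sites. Gene-start distance, motif and GC content were not recomputed on CHM13 v1.0, so their dependence on the build is not known. On CHM13 v1.0 the shared shares were 21.3% of CHM13 and 97.6% of RPE-1 peaks, RPE-1-only sites differed in RAD21 (-23.8 points, adjusted p = 0.00368, exact sign test) and SA1 (-18.9 points, 0.0148), and the RAD21 difference between the lines was 22.2 points (0.00368). Requiring overlap of 50% of both peaks gave shares of 7.46% and 51.8%, which by construction leaves out pairs of unequal width. It turned the differences between the lines in gene-start distance (3872 bp) and motif (-9.05 points), and the gene-start share of CHM13-only sites (0.531 points), of RPE-1-only sites (0.879 points) and between the lines (-0.348 points), none of the last 3 called. It gave calls for RPE-1-only sites in width (-55 bp), RAD21 (-5.91 points) and GC content (-5 points) and between the lines in SA1 (-26.8 points) and GC content (-2.33 points). Counting peaks within 1 kb as shared lost the call between the lines in distance (-13938 bp) and moved the RPE-1-only motif share past the threshold (-13.5 points). Joining peaks closer than 1 kb gave 14.6% of CHM13 peaks shared and lost the same distance call (-13838 bp). With peaks of at least 360 bp, which leaves out RPE-1 peaks below the median, 7.49% of CHM13 peaks were shared, the distance calls of RPE-1-only sites (28939 bp) and between the lines (-24764 bp) were lost, the CHM13-only gene-start share (0.518 points) and the motif difference between the lines (-1.22 points) changed sign without a call, and the gene-start share (1.97 points) and GC content (-1.67 points) between the lines passed the threshold over 41 RPE-1-only sites. Protein-coding starts turned the CHM13-only gene-start share (1.17 points, called) and moved the difference between the lines past the threshold (2.29 points). A distance of 5 kb called it lower (-3.47 points) and took the RPE-1-only share back over the threshold (-6.26 points). The looser motif CCNNNAGNNGGC, in 2.16% of tiles, moved the RPE-1-only share past the threshold (-21.3 points), with 8 of 19 chromosomes at 0. Nothing is read from tests of RPE-1-only gene-start and motif shares or of their differences between the lines outside the setting of 50% overlap, since many chromosomes held no such site (13 of 19 for either, 16 of 19 for protein-coding starts, 13 of 16 for gene starts with peaks of at least 360 bp). The same holds on hg38 for such tests of RAD21 and SA1 overlap, since some chromosomes held only 1 RPE-1-only site. Leaving out chromosome X, the whole peak for motif or GC, and 50% coverage for RAD21 and SA1 changed no call. The causes of these changes were not tested. No paired analysis was possible because the lists pool the replicates of a line, and leaving out a replicate was not possible for the same reason. Absence of a peak is absence from a list, and the lists hold no depth or height by which a site missing in RPE-1 could be told from one under the limit of calling.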
